A study of Drosophila melanogaster with 2 samples.

Results

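The 8 Hox genes of Drosophila melanogaster were described in a chromatin immunoprecipitation sequencing (ChIP-seq) study of Sima, the fly counterpart of the mammalian hypoxia-inducible factor HIF-1alpha. The genes were lab, pb, Dfd, Scr, Antp, Ubx, abd-A and Abd-B. A region belonged to a Hox gene when its summit, the base of highest signal, lay in the gene body or up to 5000 bp outside it. By this rule 86 of the 30000 regions in the list for the pooled reads belonged to the 8 genes, with 92 of the 30000 regions of replicate 1 and 108 of the 30000 regions of replicate 2. All 8 genes are members of 13945 protein-coding genes on the arms with thresholded regions. All 8 windows lay on chromosome arm 3R, did not overlap, and held 418 kb together.

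There was 1 group, with 2 biological replicates. It was made of whole embryos 0 to 24 h old, of both sexes pooled, from 1 transgenic strain, sima-RB-GFP, in which the RB isoform of sima carries GFP at its C terminus. Chromatin had been sonicated to 200 to 800 bp and precipitated with an antibody against GFP. Neither embryos without the tag nor embryos at another oxygen level were analysed here, the promoter that drives the tagged gene is not named in the labels, and whole embryos mix cells in which a given Hox gene is on with cells in which it is off. Each region carried a signal value from the peak caller, given below as its rank in its own list, with 1 the strongest, or as a ratio to the median signal of that list. The strongest 1272 pooled regions make up the list that passed a threshold on the irreproducible discovery rate (IDR), a measure of how well replicates rank the same regions. No source used here gives read numbers, so depth is unknown and ranks carry no precision from depth. The list of replicate 1 held 14 mitochondrial regions and that of replicate 2 held 0.

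Hox genes encode homeodomain transcription factors that give each body segment its identity along the head-to-tail axis. In the fly they stand in a pair of clusters, each in the order of the body parts they shape. The Antennapedia complex holds lab, pb, Dfd, Scr and Antp, which act in the head and thorax, and the bithorax complex holds Ubx, abd-A and Abd-B, which act in the posterior thorax and the abdomen. Their long introns and intergenic stretches hold enhancers, insulators and the elements through which Polycomb group proteins keep them silent and Trithorax group proteins keep them active.

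One of the 8 Hox genes, Antp, had a region above the IDR threshold. That is 12.5% of the Hox genes, beside 19.6% of all protein-coding genes with such a summit in the same kind of window. Hox genes are long, and among the 1865 protein-coding genes with a body of at least 10593 bp, the length of Dfd, the shortest Hox gene, the share was 31.4%. No Hox gene had a thresholded summit within 500 bp of a start site, which was already known when the genes were chosen and is no separate result. Of all protein-coding genes 6.22% had one. The 1 thresholded region in 418 kb came to 0.24 per 100 kb, beside 0.95 per 100 kb of the chromosome arms. With 8 genes, 1 gene more or fewer moves the share by 12.5 percentage points.

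The sequences that follow are those of the Antp region above the threshold and of the strongest pooled region of 5 other Hox genes. Those of lab, Ubx, abd-A and Abd-B were found in both replicates within 100 bp. That of Scr, matched in replicate 2 only, was picked for the word it holds at its summit and does not stand for the others. Those of pb and Dfd are not shown. Each is from the + strand of dm6, read from the RefSeq copy of the Release 6 genome, 300 bases for Antp and 101 bases centred on the summit for the others. Capitals mark 5 words searched on both strands: ACGTG and GCGTG (the core of the hypoxia response element), GAGAG (the site of the GAGA factor Trl), GCCAT (the core of the site of Pho, a Polycomb group protein) and TGATNNAT (a joint site of Hox proteins and Exd).
Antp, chr3R:6912323-6912622: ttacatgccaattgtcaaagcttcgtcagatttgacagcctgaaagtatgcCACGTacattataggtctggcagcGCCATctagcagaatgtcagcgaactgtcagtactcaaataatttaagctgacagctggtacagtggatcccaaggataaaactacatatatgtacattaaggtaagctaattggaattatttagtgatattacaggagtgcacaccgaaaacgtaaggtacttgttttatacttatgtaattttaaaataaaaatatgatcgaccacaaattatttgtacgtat
lab, chr3R:6661094-6661194: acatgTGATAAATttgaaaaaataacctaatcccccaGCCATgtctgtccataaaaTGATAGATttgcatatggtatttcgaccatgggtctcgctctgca
Scr, chr3R:6818653-6818753: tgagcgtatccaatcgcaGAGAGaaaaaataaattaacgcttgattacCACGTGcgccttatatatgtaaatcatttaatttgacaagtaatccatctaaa
Ubx, chr3R:16655971-16656071: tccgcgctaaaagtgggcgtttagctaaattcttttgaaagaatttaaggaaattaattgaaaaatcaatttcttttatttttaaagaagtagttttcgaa
abd-A, chr3R:16811807-16811907: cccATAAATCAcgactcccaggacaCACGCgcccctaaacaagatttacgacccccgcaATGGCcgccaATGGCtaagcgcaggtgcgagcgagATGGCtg
Abd-B, chr3R:16969999-16970099: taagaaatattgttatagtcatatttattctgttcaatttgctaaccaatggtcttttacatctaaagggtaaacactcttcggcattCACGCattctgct
The Antp sequence has 1 match to ACGTG and 1 to GCCAT, both further than 50 bp from the summit, which had 0 of the 5 words within 50 bp. The Scr sequence holds the palindrome CACGTG, in which ACGTG is read on each strand. The abd-A sequence has 3 matches to GCCAT and 1 each to GCGTG and TGATNNAT, and a G+C content of 59.4%. The Ubx sequence has 0 matches and a G+C content of 26.7%.

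Antp directs the identity of thoracic segments. Its thresholded region (chr3R:6912275-6912670, summit 6912473) had rank 1181 and a ratio of 2.87, and the last region above the threshold had rank 1272 and a ratio of 2.76. Replicate 2 placed the summit 9 bp away, at rank 1124 with a ratio of 2.91. Replicate 1 had its nearest summit 112 bp away, at rank 1820 with a ratio of 2.07, so it lay just beyond the 100 bp used here to match summits. With replicate 1 alone, 0 Hox regions were among the strongest 1272, and 0 were among the strongest 636 of the pooled list. With replicate 2 alone the same Antp region was the 1 that passed. Ranked by the deposited -log10 q in place of the signal, the region came at 1509 in the pooled list. By that ranking 0 Hox regions were among the first 1272. Regions with equal -log10 q shared their mean rank and such ties were not counted, so this 0 does not place the region below the threshold.

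The summit lay in an intron that all 12 annotated Antp transcripts span, within a stretch of 21047 bp free of Antp exons (chr3R:6910472-6931518). It was 2002 bp from the exon on the 3' side and 19046 bp from the exon on the 5' side. The nearest Antp start site was 20367 bp upstream, at 6932840, and the nearest start site of any gene was that of lncRNA:CR43252, 7791 bp away. CG46458, annotated over the same stretch on the same strand, spans the summit too.

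Antp held further regions around this one. In replicate 1 the strongest region of any Hox gene was at 6914790, with rank 1623 and a ratio of 2.15, about as strong there as the region at 6912361. The pooled list had a summit 37 bp from it, at rank 6140, and replicate 2 had none within 100 bp of that pooled summit. The overlapping pooled region with its summit at 6914493 had rank 6106 and was found in both replicates, at rank 9888 in replicate 1 and rank 5061 in replicate 2. The pooled region at 6921426 had rank 4943, with rank 22423 in replicate 1 and rank 4403 in replicate 2. The single strongest Antp region of each replicate thus lay in the same 21047 bp stretch, at different places in it. The next strongest of replicate 2, at 6936302 and 6934404, had ranks 2135 and 2509 and lay outside that stretch, upstream of the internal start site at 6932840. Replicate 1 had its nearest summits 3377 bp and 1354 bp from the corresponding pooled ones. In all, Antp had 21 pooled regions, of which 2 were found in both replicates, 7 in replicate 1 only, 11 in replicate 2 only and 1 in neither.

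**Figure D1:**
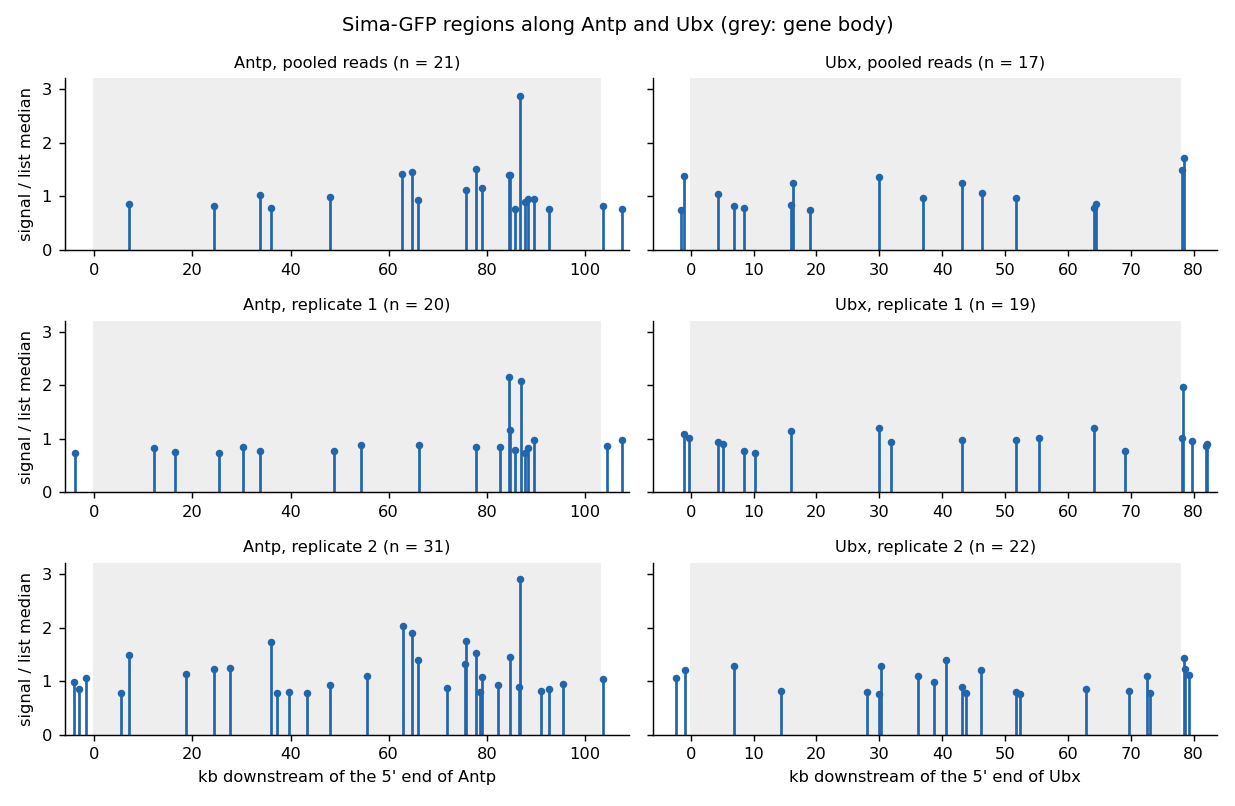
Signal of each region, as a ratio to the median of its list (y axis), against distance from the 5' end of Antp (left) and Ubx (right) in kb, for pooled reads, replicate 1 and replicate 2 from top to bottom; grey marks the gene body. The tallest Antp line is 2.87 in the pooled list and 2.91 in replicate 2, at nearly the same place. The tallest Antp line of replicate 1 is 2.15, at another place in the gene. The tallest Ubx lines stand just beyond the 3' end of Ubx.

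The other 4 genes of the Antennapedia complex had no region above the threshold. lab, which acts in the head and the midgut, had its strongest pooled region at rank 3088 (summit 6661144), in intergenic sequence 283 bp beyond its 3' end and 1044 bp upstream of the start site of agt. This region was found in both replicates, at rank 3239 in replicate 1 and rank 3929 in replicate 2, with a ratio of 1.64 ± 0.0817 (SD, n = 2). Upstream of lab, the region at 6681746 had rank 4396 in the pooled list and rank 2445 in replicate 2, with no summit of replicate 1 within 100 bp. In the gene body, replicate 1 had rank 2757 at 6667420, its strongest lab region, where the nearest pooled summit (6667593) had rank 5647. The replicates named different lab regions as strongest, and the best intronic one in the pooled list was that at rank 5647. lab had 12 pooled regions in 27164 bp.

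pb, needed for the mouthparts, had its strongest pooled region at rank 5778 (summit 6710840), in coding sequence of pb. Replicate 2 placed it 8 bp away at rank 3253, and the nearest summit of replicate 1 was 3519 bp away. Of the 9 pooled pb regions, the 1 found in both replicates (6745135, rank 12495) lay upstream of pb, 999 bp from the start site of zen2. Dfd, which specifies the mandibular and maxillary segments, had 4 pooled regions, the fewest of the 8 genes. Its strongest (6807041) had rank 5279 and lay 4613 bp beyond the 3' end of the gene. Replicate 2 had rank 2296 there, and replicate 1 had its nearest summit 145 bp away at rank 10707. An overlapping pooled Dfd region (6807246, rank 19408) was found in both replicates, at rank 10707 in replicate 1 and rank 7279 in replicate 2.

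Scr, which specifies the labial segment, the anterior thorax and the salivary glands, had its strongest pooled region at rank 5175 (6818703), 4417 bp beyond its 3' end and 1191 bp upstream of the start site of tRNA:Lys-TTT-2-1. Replicate 2 had rank 3242 there, 24 bp away, while replicate 1 had rank 28835, 129 bp away. The 1 Scr region found in both replicates (6826512, rank 6335) was intronic, with rank 8516 in replicate 1 and rank 12083 in replicate 2. For pb, Dfd and Scr the strongest pooled region was thus matched in replicate 2 alone.

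In the bithorax complex the strongest pooled region of each gene was found in both replicates. Ubx, which acts in the posterior thorax and the anterior abdomen, had rank 3507 at 16656021, 602 bp beyond its 3' end and 359 bp upstream of the start site of modSP, which encodes a serine protease. Its ratio was 1.96 in replicate 1 (rank 2139) and 1.43 in replicate 2 (rank 5266), and this was the strongest Ubx region in either replicate. A second pooled summit stood 202 bp from it, at rank 5064. Inside Ubx, the best intronic region (16704499) had rank 6414, with rank 8982 in replicate 1 and rank 28721 in replicate 2. Replicate 2 also had a stronger region overlapping it, with its summit 277 bp away (16704222, rank 7228). Of the 17 pooled Ubx regions 4 were found in both replicates.

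abd-A, which acts in the abdomen, had its strongest region in its own intron (16811857, rank 3079), at rank 3564 in replicate 1 and rank 6555 in replicate 2, with a ratio of 1.65 and 1.33. The next, at 16834827, lay 4778 bp upstream of the gene, in introns of MSAmiP and lncRNA:iab8, and had rank 3630. There the replicates placed the summit within 1 bp and differed in strength, with rank 24236 and a ratio of 0.81 in replicate 1 and rank 2151 and a ratio of 2.03 in replicate 2. Abd-B, which specifies the posterior abdomen, had rank 3925 at 16970049, in its intron, 1475 bp upstream of an internal start site. Replicate 1 had rank 12315 there and replicate 2 rank 3332. Its next, at 16947035 (rank 5286), was also intronic and found in both, at rank 10250 in replicate 1 and rank 7564 in replicate 2.

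**Figure D2:**
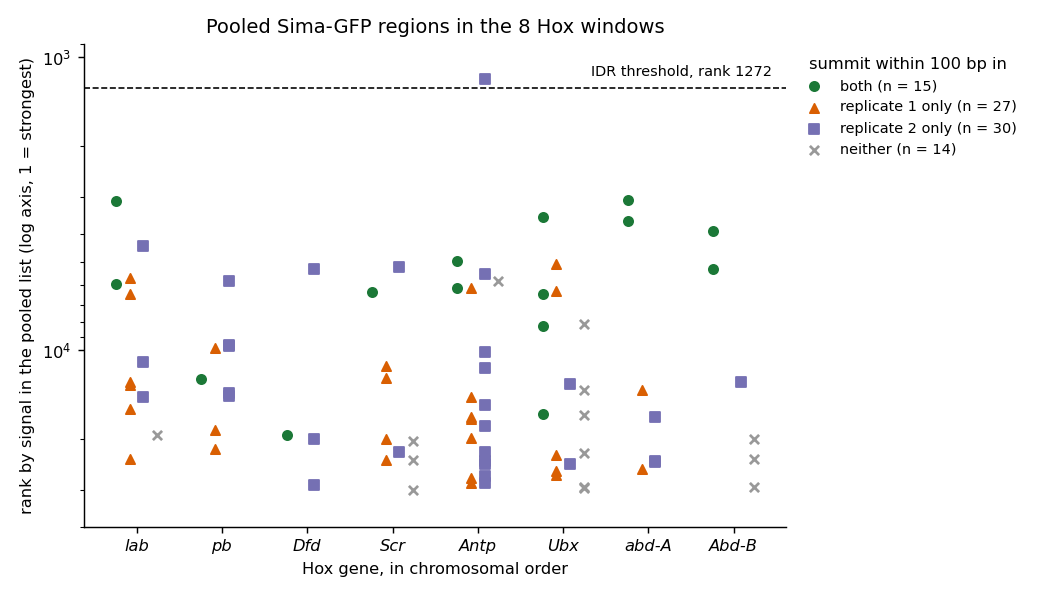
Rank of each of the 86 pooled regions (y axis, log scale, strongest at the top) by Hox gene in chromosomal order; colour and shape give the replicates with a summit within 100 bp, and the dashed line is the IDR threshold at rank 1272. A single point, of Antp, lies above the line, and the other 7 genes begin between ranks 3079 and 5778.

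Across the 8 genes the pooled Hox regions had a median rank near that of all pooled regions, with a smaller share among the strongest 5000. Their median rank was 14424, where the median of the whole list is 15000 by construction, and their ranks ran from 1181 to 29905. The strongest 5000 of the pooled list held 8 of the 86 Hox regions (9.3%, beside 16.7% of all pooled regions), and the strongest 10000 held 28 (32.6%, beside 33.3%). Counted by gene, 5 of the 8 Hox genes (62.5%) had a region among the strongest 5000, beside 67.9% of the 1865 long genes. With regions in the gene body only it was 3, since the strongest regions of lab and Ubx lie outside their bodies and the best ranks inside were 5647 and 6414. Dfd had 1 region in its body, at rank 28702. The median best rank was 3716 for the Hox genes and 2581 for the 1833 long genes that had any pooled region. A longer window can hold more regions from which the best is taken, and the best ranks were not adjusted for this. The longest Hox window, of Antp (112976 bp), held 21 pooled regions and the shortest, of Dfd (20593 bp), held 4. The median gene body was 30.6 kb for the Hox genes and 21.8 kb for the long genes. Placed by best rank among the 1865 long genes, Antp came 551st, abd-A 1019th, lab 1021st, Ubx 1086th, Abd-B 1146th, Scr 1284th, Dfd 1293rd and pb 1337th. Antp led in each replicate, at rank 1623 in replicate 1, where Ubx was next at 2139, and at rank 1124 in replicate 2, where abd-A was next at 2151. Below Antp, each gene differed from the next in this order by less than the gap between the replicates of at least 1 of the pair. Genes further apart could still differ in each replicate, as lab (2757 in replicate 1 and 2445 in replicate 2) did from pb (6833 and 3253 there), Scr (5552 and 3242) and Abd-B (7032 and 3332).

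**Figure D3:**
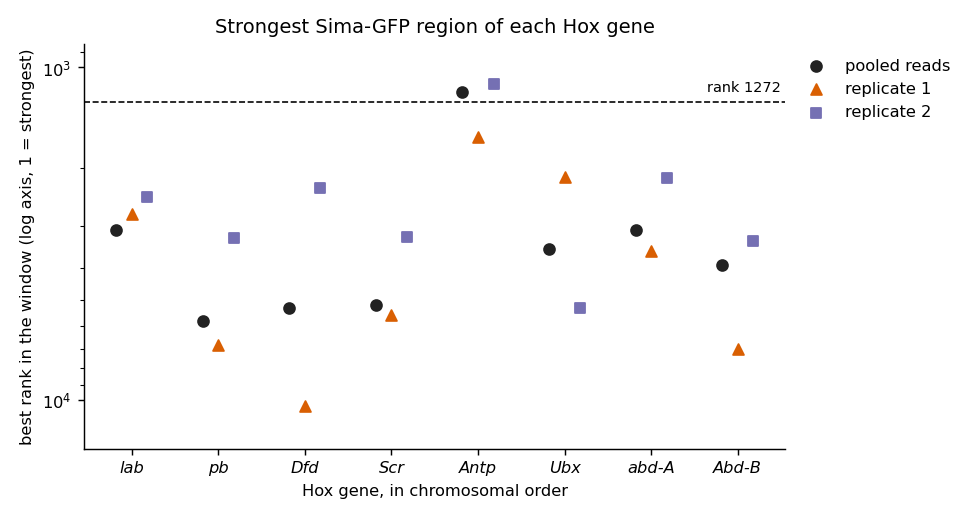
Best rank in the window of each Hox gene (y axis, log scale, strongest at the top) in the pooled list, replicate 1 and replicate 2; the dashed line is rank 1272. Replicate 2 lies above replicate 1 for 7 of the 8 genes, Ubx being the exception, and the gap is widest at Dfd (2296 in replicate 2 and 10416 in replicate 1).

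The replicates differed in how strongly they ranked Hox regions. Replicate 1 had a median rank of 18315 over its 92 Hox regions, with 7 among its strongest 5000. Replicate 2 had a median rank of 13576 over its 108, with 16 among its strongest 5000. The strongest 5000 make up 16.7% of each list of 30000. The share of Hox regions among them was well below this in replicate 1 (7 of 92) and only slightly below it in replicate 2 (16 of 108). Of the 86 pooled regions, 15 (17.4%, Wilson 95% interval 10.9 to 26.8, for counting error over regions only) had a summit within 100 bp in both replicates, beside 23.1% of all 30000 pooled regions. Another 27 (31.4%, beside 35.2% of all pooled regions) were found in replicate 1 only. In replicate 2 only there were 30 (34.9%, beside 24.3%), and 14 (16.3%, beside 17.4%) were found in neither. Regions found in both had a median rank of 5923, beside 4655 for all such pooled regions, and the other Hox regions had 16898, beside 18201. With summits matched within 200 bp, 26 Hox regions (30.2%) were found in both replicates, beside 32.7% of all. In the pooled list 10 neighbouring pairs of Hox regions overlapped, with summits 202 to 334 bp apart, so the 86 regions are not all separate sites.

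The regions were spread over the genes at about the density of the chromosome arms. The windows held 20.6 pooled regions per 100 kb, beside 22.4 on the arms, and 22.0 in replicate 1 and 25.9 in replicate 2, beside 22.4 in each. lab was the densest, with 44.2 per 100 kb in the pooled list, 51.5 in replicate 1 and 47.9 in replicate 2. Abd-B was the sparsest in the pooled list at 10.9 and in replicate 1 at 14.5, while Scr was lowest in replicate 2 at 16.3. The lab window also holds agt, twr and CG1307, and 2 of its 12 pooled summits stood within 500 bp of a start site of agt or CG1307. Its pooled regions at 6661144 and 6661350 overlap, as do those at 6674745 and 6674949. The lab window, of 27164 bp, is not the shortest: that of Dfd, of 20593 bp, held 19.4 per 100 kb.

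**Figure D4:**
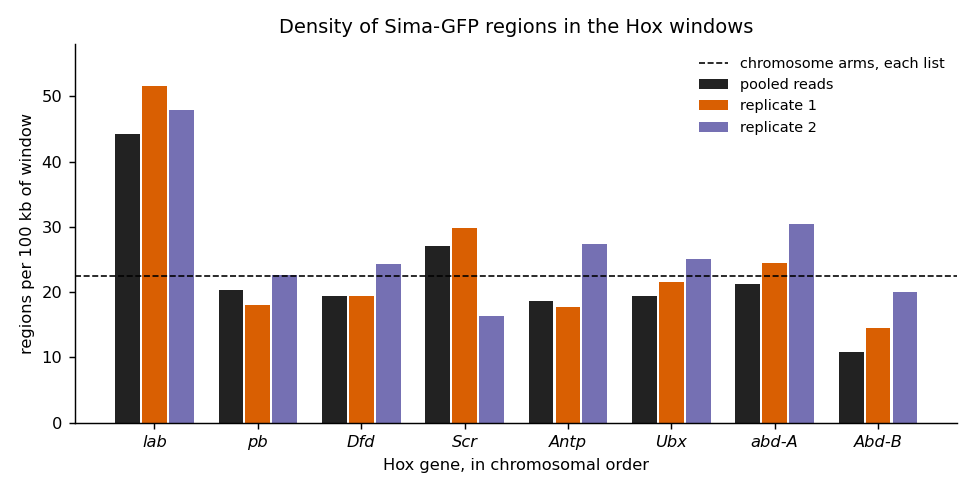
Regions per 100 kb of window (y axis) for each Hox gene in the pooled list, replicate 1 and replicate 2; the dashed line is the density on the chromosome arms, 22.4 per 100 kb. The 3 bars of lab, from 44.2 to 51.5, stand above those of the other genes.

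Most Hox regions lay in introns. Of the 86 summits, 54 (62.8%) were intronic, where introns make up 67.7% of the bases of the windows, and 20 (23.3%) were intergenic, where intergenic sequence makes up 14.6%. There were 4 summits in coding sequence, 3 in 5' UTRs, 2 in 3' UTRs and 3 in exons of non-coding RNAs (1 where introns of overlapping genes take precedence). By position, 62 summits lay in a Hox gene body, 9 upstream of it and 15 beyond its 3' end. The windows also overlap 30 other annotated genes, 12 of them protein-coding, so a region in a Hox window need not belong to the Hox gene. Just inside the 5000 bp limit lay a summit 4888 bp beyond Scr (rank 20313) and one 4818 bp beyond Dfd (rank 19408). Just outside it lay one 5225 bp from lab (rank 25224) and one 5293 bp from Abd-B (rank 5742).

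At the Hox start sites themselves the pooled regions had ranks from 12792 to 25325, on both sides of the list's median of 15000. A pooled summit within 500 bp of a start site was found for 4 of the 8 genes (50%), beside 48% of all protein-coding genes. It was at rank 12792 for Abd-B, 29 bp downstream of an internal start site, and at rank 13965 for pb, 332 bp downstream. For Antp it was at rank 18069, 423 bp upstream of the internal start site at 6932840. For abd-A it was at rank 25325, inside the gene and 499 bp upstream of the internal start site at 16828105. Replicate 2 ranked the pb one at 5584 and the Antp one at 5734, and replicate 1 had no summit within 500 bp of the pb start site. Replicate 1 had its strongest Abd-B region (16934493, rank 7032, ratio 1.32) 251 bp from the Abd-B start site at 16934242. Antp and Abd-B were the 2 genes with such a summit in the pooled list and in both replicates, though not always at the same base. The pooled list had none within 500 bp of a start site of lab, Dfd, Scr or Ubx. A single replicate had one at lab (replicate 2, rank 24868), Dfd (replicate 1, rank 24337) and Ubx (replicate 1, rank 14371), and Scr had none in any of the 3 lists.

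The words at Hox summits are given as shares of summits with a match within 50 bp on either strand. GCCAT stood at 24 of the 86 Hox summits (27.9%), beside 17.6% of all thresholded and 18.9% of all pooled summits, and GAGAG at 12 (14.0%, beside 9.04% and 11.3%). TGATNNAT stood at 7 (8.14%, beside 6.05% and 6.54%). ACGTG stood at 4 (4.65%, beside 7.08% and 8.43%) and GCGTG at 9 (10.5%, beside 7.08% and 12.1%). The median G+C content within 50 bp was 39.6% at Hox summits, 33.7% at thresholded summits and 40.6% at all pooled summits. These shares rest on few summits, some of them overlapping, and a match is not a binding site.

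Between the Hox windows the same complexes held 3 further thresholded regions, 2 of which ranked ahead of that of Antp. In the bithorax complex a region between Ubx and abd-A (chr3R:16798695-16799090) had rank 496 and a pooled ratio of 4.31, and was found in both replicates, at rank 1398 in replicate 1 and rank 329 in replicate 2. It was intergenic, 8321 bp beyond the 3' end of abd-A and 1707 bp from the start site of lncRNA:CR45750. In the Antennapedia complex a region in an intron of lncRNA:CR44931 (chr3R:6881538-6881933), 14517 bp beyond the 3' end of Antp, had rank 1088, at rank 2446 in replicate 1 and rank 1028 in replicate 2. The third (rank 1270) lay 203 bp from the start site of bcd, the maternal anterior determinant, and within 5000 bp of Ama, so that both genes count it. It had rank 3117 in replicate 1 and rank 897 in replicate 2. All of these had a summit within 35 bp in each replicate. The other non-Hox homeobox genes of the complex had their best regions at rank 4189 (zen), 12495 (zen2) and 27447 (ftz).

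Genes that act with, under or upon Hox genes were counted in the same windows, beside the 19.6% of all protein-coding genes. Of 10 Hox cofactors and partners 1 had a thresholded summit, slp2, a forkhead gene, at rank 156 and 4297 bp from its start site. The best region of exd, which encodes the main Hox cofactor, had rank 17309, and that of its partner hth rank 1518. Of 13 genes known to act downstream of Hox proteins 3 had one: fkh, a target of Scr in the salivary gland (rank 550, 242 bp from its start site), the BMP gene dpp (rank 702) and the cell death gene rpr (rank 1132).

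Genes that keep Hox genes on or off were counted in the same way, and no test was made on the lists. Of 11 Trithorax group genes 10 (90.9%) had one, and ash2 was the exception, with its best region at rank 1623. Of 19 Polycomb group genes 8 (42.1%) had one. The strongest in these lists were often nearer to another gene. The region in the window of ash1, which encodes a histone methyltransferase, had rank 2 and lay 95 bp from the start site of CG14100, and that of Caf1-55 had rank 6 and lay 128 bp from the start site of mRpS10. The region in the window of Pc had rank 30 and lay 54 bp from CG11309. That of ph-p had rank 10 and lay 484 bp from a start site of ph-p itself. Among Trithorax group genes, brm, which encodes a chromatin remodelling ATPase (rank 375), had its region 94 bp and Utx, which encodes a histone demethylase (rank 1114), 57 bp from a start site of its own. osa (rank 25) and Trl (rank 36) had theirs 13964 bp and 1522 bp from a start site of their own. These lists were written with earlier results of these data known, and gene length was not taken into account.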

How the data were processed

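ChIP-seq region lists on dm6 were used: 1 relaxed list for each replicate, 1 for the pooled reads of both, and the IDR list. The text files that accompany the lists say that the authors used 1 control file for the relaxed lists and made the IDR list from all 3. The deposited signal value of each region is the peak caller's own; no source used here states its scale, and only ranks and ratios to the list's median were compared. The authors also deposited a -log10 q per region, used for alternative rankings. Not given in the sources used here are the caller, the IDR threshold, versions and read numbers. The IDR list was checked to be the 1272 strongest pooled regions.

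Gene models came from Ensembl release 115, whose coordinates are those of dm6, and sequence from RefSeq Release 6. Windows, ranks, matches (summits within 100 bp), classes of the summit base (coding, 5' UTR, 3' UTR, non-coding exon, intron, intergenic, in this order) and words were computed with pandas 2.3.3 and numpy 2.4.6 under Python 3.11.15 and drawn with matplotlib 3.10.9, and the window and matching steps were tested on simulated data. With 2 replicates of 1 group no test was made across samples. Wilson intervals cover counting error only. Named genes were the 8 Hox genes, up to 3 members of each further list with the strongest thresholded summit in the window, and genes annotated at named regions; ash2, brm, Utx, exd, hth, zen, zen2 and ftz were named after their values were seen. The members and lists were chosen with earlier results of these data known. Polycomb group gene caly was found under this newer symbol. Lists on dm3 were not used here.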

Additional observations from a re-analysis of the deposited data

How the results depend on the processing

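The count of 1 Hox gene and 1 Hox region above the threshold was the same with the gene body only, with 2000 bp outside it and with regions assigned by any overlapping base. It was 0 among the strongest 636 of the IDR list. It was also 0 among the first 1272 pooled regions by -log10 q, an alternative chosen after seeing the data. Regions with equal -log10 q shared their mean rank there, so that 0 can come from ties and decides nothing about the threshold. With 1 replicate's list in place of the pooled one it ranged from 0 to 1, the 0 being replicate 1 alone. Over the same lists of single replicates the number of regions ranged from 92 to 108, their median rank from 13576 to 18315 and their density from 22.0 to 25.9 per 100 kb. The best rank ranged from 2445 to 2757 for lab, 3253 to 6833 for pb, 2296 to 10416 for Dfd, 3242 to 5552 for Scr, 1124 to 1623 for Antp, 2139 to 5266 for Ubx, 2151 to 3564 for abd-A and 3332 to 7032 for Abd-B. The share of Hox regions found in both replicates was 8.14% within 50 bp and 30.2% within 200 bp, beside 14.5% and 32.7% of all pooled regions, and 42.9% (12 of 28) among the strongest 10000, beside 55.2%. Also chosen after seeing the data were narrower windows for the best ranks and the smaller annotation classes. With the gene body only, the best rank was 5647 for lab, 28702 for Dfd and 6414 for Ubx, and 3 genes had a region of rank 5000 or better. With 2000 bp outside the body it was 28702 for Dfd. With introns placed ahead of the other classes, 1 summit in place of 3 was in a non-coding exon, and the other classes stayed within 1.5 times. The median rank was 14422 when ranked by -log10 q. No paired analysis was possible because there is 1 group. The depth of the libraries is unknown, and 2 replicates leave the order of neighbouring Hox genes by rank uncertain.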
